A study of Mus musculus with 6 samples.

Results

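The genes described here are the cadherins and protocadherins of the mouse, taken as every protein-coding gene of the deposited table whose symbol is Cdh followed by a number or begins with Pcdh. There are 91 of them among 27884 genes. They comprise 5 type I and 13 type II classical cadherins, 4 other Cdh genes, 9 delta protocadherins, 3 further non-clustered protocadherins, and 57 clustered protocadherins (14 alpha, 22 beta and 21 gamma). Membership follows from symbol and biotype, with no measured value in the rule. The family itself was chosen with earlier results of these data known.

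All libraries came from female NuTRAP::Pnoc-Cre mice aged 17 to 18 weeks, from punches of the preoptic area (POA), a hypothalamic centre of body temperature control. In these mice Cre is driven from Pnoc, the gene of the nociceptin precursor, and switches on the NuTRAP allele, so that the ribosomal protein L10a is tagged with EGFP in Cre cells. RNA pulled down with these ribosomes by anti-GFP beads (IP, n = 3) was compared with total RNA of the same tissue (input, n = 3). Both groups carry the same alleles, and no animal without Cre was compared here. Each replicate pooled 3 animals, so the spread between libraries is one between pools. The comparison asks which transcripts are on the ribosomes of PNOC cells relative to the whole tissue.

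Cadherins are transmembrane proteins whose extracellular repeats bind calcium and join cells by binding cadherins on the neighbouring cell. Type I and type II classical cadherins hold a catenin-binding tail that connects to actin, and different neuron types carry different type II members. Clustered protocadherins are expressed in combinations that differ from neuron to neuron and serve the recognition of a neuron's own branches. In the alpha and gamma clusters each gene contributes its own first exon, spliced to 3′ constant exons that all genes of the cluster share, whereas beta genes have no shared constant exons.

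Classical cadherins are cut after their prodomain, and the mature protein starts with the strand that swaps between partners. Type I members anchor that strand by a single tryptophan and type II members by a pair. The 36 bases around the cut are shown for the classical members that passed the test apart from the scarce Cdh5, together with the type I Cdh4, because they separate the subfamilies by letters alone. Bases are 5′ to 3′ on the coding strand, from GENCODE M39 transcripts on GRCm39 (mm39), with tryptophan codons (TGG) in capitals.
Cdh15 (type I, chr8:123583319-123583354, plus strand): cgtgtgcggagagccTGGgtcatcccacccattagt
Cdh4 (type I, chr2:179439341-179439376, plus strand): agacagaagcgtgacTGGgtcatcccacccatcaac
Cdh22 (type II, chr2:165022869-165022904, minus strand): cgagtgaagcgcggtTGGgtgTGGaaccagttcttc
Cdh24 (type II, chr14:54876846-54876881, minus strand): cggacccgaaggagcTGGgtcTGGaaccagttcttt
Cdh10 (type II, chr15:18899825-18899860, plus strand): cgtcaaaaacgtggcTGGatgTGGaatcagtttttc
Cdh11 (type II, chr8:103406289-103406324, minus strand): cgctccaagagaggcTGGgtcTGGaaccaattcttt
Cdh20 (type II, chr1:104861987-104862022, plus strand): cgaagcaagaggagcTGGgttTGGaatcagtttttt
Cdh19 (type II, chr1:110882338-110882373, minus strand): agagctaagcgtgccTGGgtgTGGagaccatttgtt
All 5 type I genes had 1 such codon in this window and all 13 type II genes had 2. Each window was located by a protein pattern that ends in a tryptophan, so at least 1 such codon was fixed by the search.

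Total counts ran from 48204567 to 51380354 in IP and from 49068467 to 53056642 in input. Pnoc had 44.0 ± 3.39 CPM (counts scaled to TMM-adjusted library size; mean ± SD, n = 3 each) in IP, with 10.6 ± 2.88 CPM in input. The sum of 7 neuron markers lay between 8392 and 9725 CPM in IP and between 5532 and 7035 CPM in input. Snap25 was the largest part, at 4191 to 5118 CPM in IP and 2833 to 3845 CPM in input. Of the 7 markers 3 were higher in IP and 4 did not pass. With the replicate as a block 4 were higher. Glial RNA remained in IP at a lower level than in input. The 10 astrocyte markers summed to between 887 and 1065 CPM in IP against 3475 to 4033 CPM in input, and all 10 fell. Aldoc was the largest part in IP, at 483 to 617 CPM, against 1062 to 1666 CPM in input. Input replicate 1 stood apart in 5 cortical excitatory neuron markers. They summed to 47.1, 23.2 and 31.8 CPM in IP replicates 1, 2 and 3 and to 254, 23.1 and 28.6 CPM in input replicates 1, 2 and 3. Of these 5 markers 0 passed in edgeR's test, by its unadjusted p or in DESeq2, which gave no adjusted p for Neurod2 and Neurod6. With the replicate as a block 3 of the 5 markers, Neurod2, Neurod6 and Fezf2, were lower in IP.

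Of the 91 genes, 81 had enough reads to be tested. In edgeR's quasi-likelihood test, adjusted over all 18640 genes tested, the IP level was higher for 4 and lower for 31 (adjusted p under 0.05), and 46 did not pass. Lower genes made up 38.3% of the family against 17.1% of all genes tested, and higher genes 4.94% of the family against 12.9% of all genes tested. Of the 31 lower members 17 did not meet the low-count filter in every IP library and entered the test through input, where they were high. Of the 57 members that met it in every IP library 14, or 24.6%, were lower, against 16.7% of all genes that did. The lower calls lay mostly in the alpha and gamma clusters, where 23 of 31 tested genes were lower and all 31 had a negative log2 fold change. Among the other 50 tested members 8 were lower and 4 higher, or 16% and 8%. The libraries of the 2 groups did not overlap for any of the 35 genes called. In all, IP lay entirely above input for 6 members and entirely below for 44; across all genes tested these shares were 21.7% and 26.0%. The test compares shares of RNA, so fewer cells of a type and less RNA per cell cannot be told apart in these bulk samples. IP is RNA on ribosomes and input is total RNA, so a different share of a transcript on ribosomes cannot be told apart from these either.

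**Figure D1:**
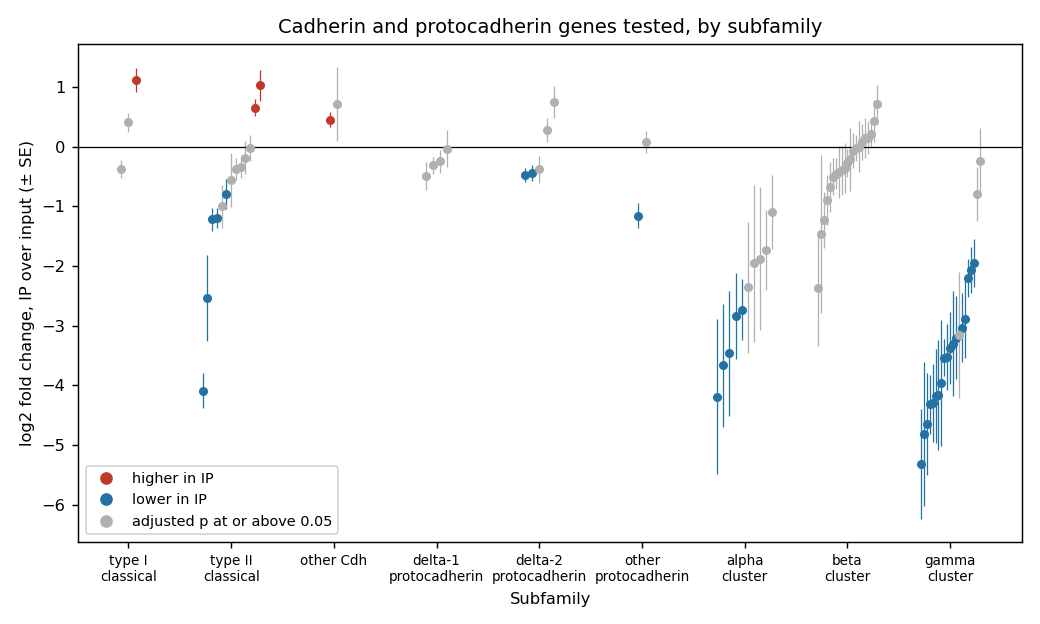
Log2 fold change of IP over input (vertical axis, ± SE) for the 81 tested genes, each a point, grouped by subfamily along the horizontal axis. Genes called higher (4) and lower (31) are coloured, and the gamma cluster, with a median of -3.37, lies far below the beta cluster, with a median of -0.27.

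Among the type I classical cadherins 3 were tested, of which Cdh15 rose. Cdh15 encodes M-cadherin, best known from muscle satellite cells and cerebellar granule cells, and lies on chromosome 8 from 123574705 to 123594136 on mm39. It had 13.9, 12.1 and 9.98 CPM in IP replicates 1, 2 and 3 and 5.78, 5.09 and 5.76 CPM in the input replicates. Every IP library was well above every input library. The difference was 2.16-fold (log2 fold change 1.11 ± 0.20, SE; adjusted p 0.00527), and the call held without any 1 library. Cdh4, or R-cadherin, had 30.3, 39.6 and 37.8 CPM in IP against 23.7, 29.9 and 27.5 CPM in input. Its groups stood apart by a narrow margin, and the difference of 0.41 ± 0.16 on the log2 scale did not pass (adjusted p 0.0903). Cdh2, or N-cadherin, the classical cadherin of most neural cells, had 55.9, 64.1 and 45.9 CPM in IP against 76.5, 65.7 and 72.2 CPM in input. That difference did not pass either (log2 fold change -0.37 ± 0.15, adjusted p 0.105). Cdh1 (E-cadherin) and Cdh3 (P-cadherin) were not tested, having 2 and 16 counts over the IP libraries and 16 and 36 over the input libraries.

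Of the 13 type II cadherins tested 2 rose and 5 fell. Over all genes tested 12.9% rose and 17.1% fell. The median of their log2 fold changes was -0.56, against -0.07 over all genes tested. Cdh22, also called PB-cadherin, is a brain type II cadherin. By the deposited gene length of 3702 bases it had the highest IP level per kilobase of all members. It stood at 15.2 CPM per kb in IP and 9.68 CPM per kb in input. Its exons in GENCODE M39 cover 6830 bases, and by that length it would not rank first. Its libraries held 60.9, 50.3 and 57.7 CPM in IP against 40.0, 35.9 and 31.7 CPM in input. All IP libraries were above all input libraries. The log2 fold change was 0.65 ± 0.14, with an adjusted p of 0.0116, kept without any 1 library. Cdh24, a type II cadherin that binds catenins, had 14.7, 15.5 and 12.9 CPM in IP and 6.05, 5.29 and 9.78 CPM in input. Input replicate 3 came closest to IP, and the log2 fold change was 1.03 ± 0.26 with an adjusted p of 0.0185. Without IP replicate 2 the call was lost, at an adjusted p of 0.0639.

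Cdh10 and Cdh20, both type II cadherins, fell by similar amounts. Cdh10 had 8.36, 10.9 and 9.89 CPM in IP against 21.6, 24.2 and 21.2 CPM in input. Its log2 fold change was -1.20 ± 0.17, with an adjusted p of 0.00179. For Cdh20 the libraries held 8.53, 6.55 and 6.35 CPM in IP against 18.1, 15.8 and 16.0 CPM in input. The IP libraries all lay well below input, and the log2 fold change was -1.22 ± 0.19, with an adjusted p of 0.00270. Both calls held without any 1 library. Cdh11, which is abundant in mesenchymal cells and also found in neurons, had 24.3, 20.0 and 18.5 CPM in IP against 51.4, 30.3 and 27.0 CPM in input. Input replicate 1 was far above the other input libraries, and the log2 fold change of -0.79 ± 0.25 passed narrowly (adjusted p 0.0455). It was lost without any of the 3 IP libraries or without input replicate 1, at adjusted p from 0.061 to 0.15.

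Cdh19 had the largest fall among the non-clustered genes. It is a type II cadherin known from Schwann cell precursors and the oligodendrocyte lineage, and lies on chromosome 1 from 110816056 to 110905314. Its libraries held 0.426, 0.412 and 0.584 CPM in IP, from 20, 19 and 29 counts, and 8.27, 7.62 and 8.52 CPM in input. The lowest input library was 13.0-fold above the highest IP library. The difference was 17.1-fold, and the log2 fold change was -4.09 ± 0.29 at an adjusted p of 8.5e-05. Beside it, 6 markers of oligodendrocyte precursors summed to between 44.8 and 72.7 CPM in IP and between 378 and 481 CPM in input, all 6 lower, at a median of -2.92 in log2 fold change. The 10 markers of mature oligodendrocytes summed to 697 to 1025 CPM in IP and 5287 to 6728 CPM in input, all 10 lower, with a median of -3.21. No defining marker of either list was at 0 in IP, and their part in the fall of Cdh19 was not tested.

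Cdh5, or VE-cadherin, the adhesion protein of endothelial junctions, was scarce throughout. It had 0.235, 0.174 and 0.141 CPM in IP against 1.57, 0.404 and 1.26 CPM in input. Input replicate 2 lay nearest to IP, and the log2 fold change was -2.54 ± 0.72, with an adjusted p of 0.0303. With the replicate as a block the adjusted p was 0.0561. Leaving out each library other than input replicate 2 also lost the call, at adjusted p from 0.0644 to 0.109. The 7 endothelial markers summed to 3.22 to 4.06 CPM in IP and 13.6 to 26.0 CPM in input, with 5 lower, and their part in the value of Cdh5 was not tested. The other type II genes, Cdh6, Cdh7, Cdh8, Cdh9, Cdh12 and Cdh18, did not pass, with log2 fold changes between -1.0 and -0.03. Cdh8 had 24.7, 24.3 and 28.8 CPM in IP against 42.9, 29.4 and 28.8 CPM in input, so that the groups nearly met.

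Cdh13 rose modestly. It encodes T-cadherin, which is held in the membrane by a lipid anchor, lacks the catenin-binding tail and binds adiponectin. Its libraries held 101, 101 and 117 CPM in IP against 76.5, 76.5 and 79.9 CPM in input. The input libraries were close together and all below IP. The log2 fold change was 0.45 ± 0.12, with an adjusted p of 0.0238, but the call was lost without any of the 3 IP libraries or input replicate 3, at adjusted p from 0.0546 to 0.0915. Cdh23, which forms the tip links of inner ear hair cells together with Pcdh15, had 2.73, 3.14 and 1.27 CPM in IP and 2.47, 1.43 and 0.445 CPM in input, and did not pass.

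**Figure D2:**
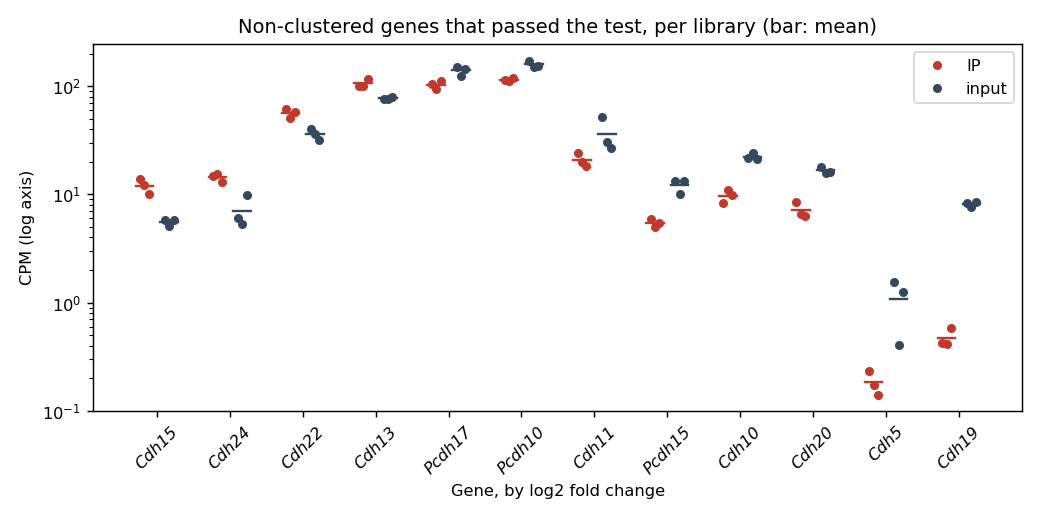
CPM on a log axis for the 12 non-clustered genes that passed the test, each point a library, IP to the left of input and the bar the mean. For Cdh19 the IP libraries lie between 0.412 and 0.584 CPM and the input libraries between 7.62 and 8.52 CPM.

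Delta protocadherins are non-clustered protocadherins with conserved cytoplasmic motifs. Several were among the best expressed members per kilobase in both groups, and their log2 fold changes ran from -0.49 to 0.75. Of 4 delta-1 genes tested 0 passed in edgeR's test, 0 by its unadjusted p and 0 in DESeq2. Of 5 delta-2 genes 2 fell, where 17.1% of all genes tested did. Pcdh10, which recruits the actin-regulating WAVE complex, had 114, 111 and 118 CPM in IP against 172, 150 and 154 CPM in input, with a log2 fold change of -0.47 ± 0.12 and an adjusted p of 0.0170. The IP libraries varied little and lay below all input libraries. Pcdh17, also a WAVE partner, had 105, 94.2 and 110 CPM in IP against 151, 124 and 145 CPM in input, with a log2 fold change of -0.44 ± 0.13 and an adjusted p of 0.0363. Both calls were lost when libraries were corrected for gene length and GC content with the replicate as a block, at log2 fold changes of -0.11 for Pcdh10 and -0.16 for Pcdh17 and adjusted p of 0.514 and 0.334. Both were also lost without any of the 3 IP libraries or input replicate 3, and Pcdh17 without input replicate 1, at adjusted p from 0.0561 to 0.144.

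Pcdh9, a delta-1 gene, had the highest level per kilobase in input, at 12.8 CPM per kb in IP and 15.1 CPM per kb in input. Its libraries held 63.5, 107 and 89.4 CPM in IP against 98.9, 112 and 97.2 CPM in input, and the groups overlapped. Pcdh7 had 69.5, 70.5 and 74.7 CPM in IP against 101, 91.0 and 75.1 CPM in input, with input replicate 3 almost at the IP level. Pcdh1 overlapped, at 67.3, 66.2 and 47.7 CPM in IP and 94.1, 37.1 and 54.3 CPM in input. Pcdh19, an X-linked gene mutated in a human epilepsy, had 45.8, 33.6 and 56.6 CPM in IP and 40.6, 33.1 and 38.7 CPM in input, with overlapping groups. Pcdh19 did not pass in the main test (log2 fold change 0.27, adjusted p 0.336). With the length and GC correction and the block it passed as higher (0.47, adjusted p 0.0451).

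Pcdh8, induced by neuronal activity in the rat, where its product takes N-cadherin into the cell, gave the largest positive value among delta protocadherins. It had 51.8, 32.0 and 25.4 CPM in IP and 25.8, 17.7 and 21.3 CPM in input. The log2 fold change of 0.75 ± 0.27 did not pass (adjusted p 0.0668), but each IP library was above the input library of its own pool, and with the replicate as a block the adjusted p was 0.0139. With the length and GC correction and the block the log2 fold change was 0.52, at an adjusted p of 0.0379. Pcdh15, the tip-link partner of Cdh23 that is also expressed by oligodendrocyte precursors, fell. It had 5.95, 4.94 and 5.48 CPM in IP against 13.2, 10.1 and 13.3 CPM in input. The highest IP library was at 59.1% of the lowest input library, and the log2 fold change was -1.16 ± 0.21, with an adjusted p of 0.00450. That call held without any 1 library. Pcdh20 had 17.5, 13.5 and 13.5 CPM in IP against 13.9, 15.9 and 12.5 CPM in input, and its groups overlapped.

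The 3 protocadherin clusters lie side by side on chromosome 18, and their summed levels parted. Over all 22 beta genes, tested or not, the sum was 76.3, 74.2 and 73.8 CPM in IP and 90.2, 81.8 and 75.5 CPM in input, a ratio of input to IP of 1.10. The 14 alpha genes summed to 3.99, 5.01 and 2.18 CPM in IP against 31.3, 11.5 and 16.3 CPM in input, a ratio of 5.29. For the 21 gamma genes the sums were 13.4, 14.2 and 8.20 CPM in IP against 139, 59.6 and 83.4 CPM in input, a ratio of 7.88. Alpha and gamma sums did not overlap between groups. Both were highest in input replicate 1, which was also the library high in cortical and striatal neuron markers, with 6 striatal markers at 352, 137 and 203 CPM in IP and 1179, 277 and 486 CPM in input. Of these 6 markers 2 were lower in IP, and 5 with the replicate as a block. The part of those cells in the sums was not tested. Without input replicate 1, the lower of the remaining input libraries was still 2.29-fold above the highest IP library for alpha and 4.20-fold above it for gamma.

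**Figure D3:**
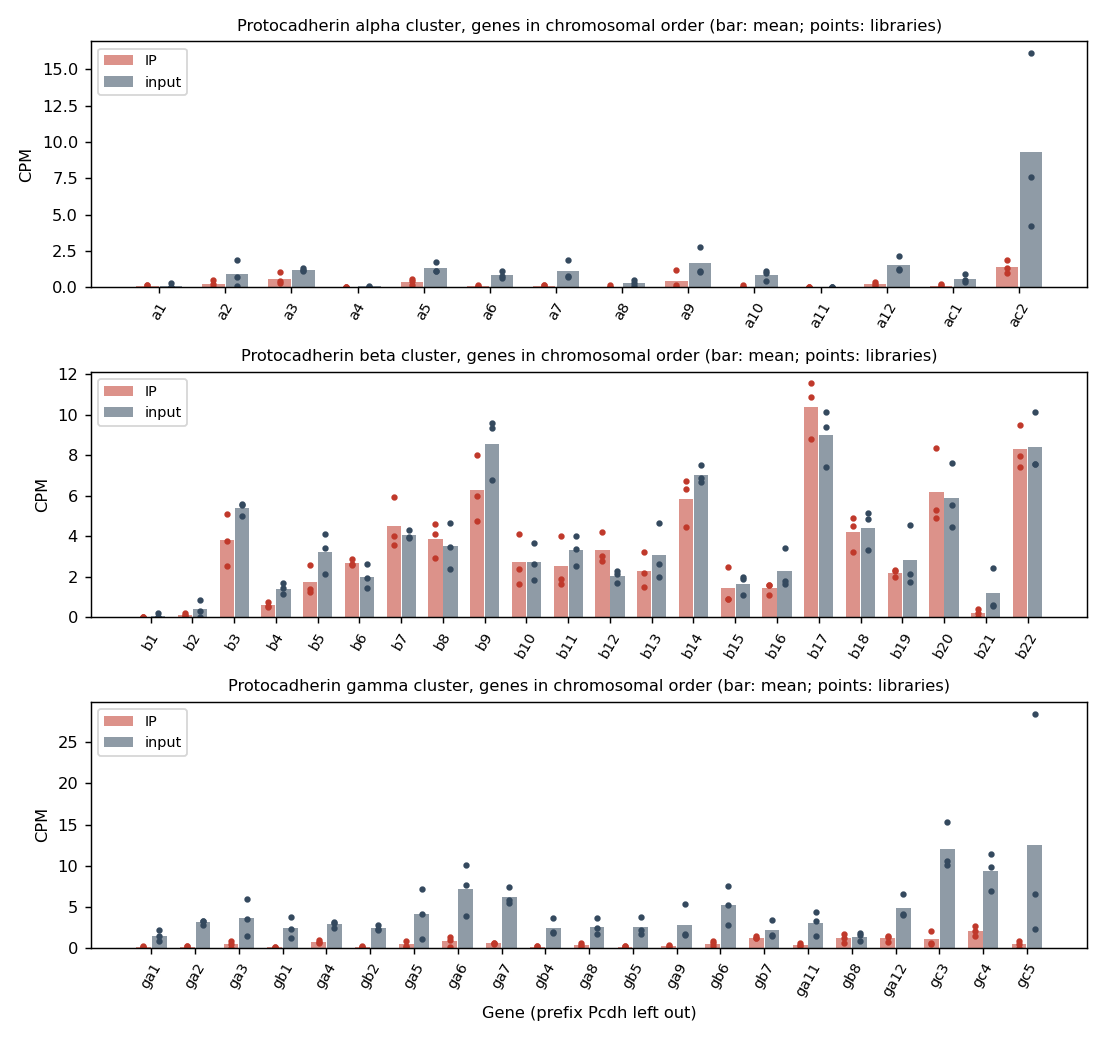
CPM of each clustered protocadherin in chromosomal order, for the alpha, beta and gamma clusters from top to bottom, with IP left of input, bars as means and points as the 3 libraries. Beta genes sum to 73.8 to 76.3 CPM in IP and 75.5 to 90.2 CPM in input, whereas gamma genes sum to 8.20 to 14.2 CPM in IP and 59.6 to 139 CPM in input.

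In the gamma cluster 18 of 21 tested genes were lower in IP. Most of them passed the low-count filter through input alone: 8 of the 21 met it in every IP library, and of those 8 genes 6 were lower. Pcdhga7 had the smallest adjusted p of all protocadherins. It had 0.512, 0.607 and 0.484 CPM in IP, from 24, 28 and 24 counts, against 7.40, 5.80 and 5.47 CPM in input. Replicates were tight in both groups, and the log2 fold change was -3.54 ± 0.31, with an adjusted p of 0.000222. Pcdhgb2 had 0.0853, 0.152 and 0.121 CPM in IP, from 4, 7 and 6 counts, against 2.78, 2.33 and 2.18 CPM in input, with a log2 fold change of -4.32 ± 0.50 and an adjusted p of 0.000718. Pcdhgb1 had the most negative fitted value, -5.32 ± 0.92, but rested on 4, 4 and 0 counts in IP, against 192, 63 and 115 in input (adjusted p 0.00411).

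The C-type gamma genes, which lie last in the cluster and are expressed more evenly among neurons than the others, also fell. Pcdhgc3, whose product acts on dendrite branching, had 0.469, 2.06 and 0.584 CPM in IP against 15.3, 10.1 and 10.5 CPM in input. IP replicate 2 stood above the other IP libraries but far below input, and the log2 fold change was -3.53 ± 0.56 with an adjusted p of 0.00279. Pcdhgc4, needed in the mouse for the survival of interneurons, had 2.07, 2.58 and 1.47 CPM in IP against 11.4, 6.91 and 9.88 CPM in input. Here the groups were far apart, with a log2 fold change of -2.20 ± 0.31 and an adjusted p of 0.00179. Pcdhgc5 had 0.832, 0.499 and 0 CPM in IP against 28.5, 2.33 and 6.57 CPM in input. Input replicate 1 was 4.34-fold above the next input library. Its call, with a log2 fold change of -4.82 ± 1.20 and an adjusted p of 0.0183, was lost without that library or without IP replicate 2, at adjusted p of 0.0532 to 0.0633. C-type genes made up 25.2, 36.2 and 25.1% of the gamma sum in IP and 39.7, 32.4 and 32.4% in input, which overlap.

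The remaining 12 lower gamma genes had log2 fold changes between -4.65 for Pcdhga2 and -1.95 for Pcdhga4. Pcdhga2 had 10, 7 and 0 counts in IP against 141, 176 and 171 in input. Among them Pcdhga5 was lost without IP replicate 2, IP replicate 3, input replicate 1 or input replicate 3, and Pcdhga9 without IP replicate 1 or input replicate 1, while the other 10 held without any 1 library. Pcdhgb7, Pcdhgb8 and Pcdhga3 did not pass. Pcdhgb7 had 1.13, 1.41 and 1.13 CPM in IP and 3.34, 1.47 and 1.57 CPM in input, where replicates 2 and 3 lay close to IP. Pcdhgb8 overlapped, at 1.19, 0.542 and 1.65 CPM in IP and 0.753, 1.73 and 1.55 CPM in input. Pcdhga3 had 0.789, 0.434 and 0 CPM in IP against 5.91, 1.47 and 3.52 CPM in input, with an adjusted p of 0.0532, and of 0.0139 with the replicate as a block.

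Of the 14 alpha genes 10 were tested and 5 fell, and only 2 of the 10 met the low-count filter in every IP library. Pcdhac2, a C-type gene needed for the spacing of serotonergic axons in the mouse, had the highest level per kilobase of its own sequence in both groups. It had 1.34, 1.89 and 0.967 CPM in IP against 16.1, 4.19 and 7.60 CPM in input. The lowest input library was above every IP library, the log2 fold change was -2.73 ± 0.52 and the adjusted p 0.00587, and the call held without any 1 library. Pcdha12, Pcdha7, Pcdha6 and Pcdha10 also fell, with log2 fold changes of -2.83, -3.47, -3.66 and -4.19. These rested on 30, 14, 9 and 6 counts over the IP libraries, and each was lost without some libraries: Pcdha12 without IP replicate 2, input replicate 1 or input replicate 3; Pcdha6 without IP replicate 2 or any input library; Pcdha7 without IP replicate 1, IP replicate 2 or any input library; and Pcdha10 without IP replicate 1, IP replicate 3 or any input library. Adjusted p then ran from 0.0521 to 0.126. Pcdha9 was uneven, with 8, 54 and 0 counts in IP and 143, 61 and 54 in input, and did not pass. Pcdha3 did not pass either, with 19, 12 and 51 counts in IP and 69, 60 and 62 in input. The 4 untested alpha genes had from 2 to 51 counts over all 6 libraries.

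Beta genes differed from both neighbours. Of the 21 tested beta genes 0 passed in edgeR's test, 2 were lower by its unadjusted p, DESeq2 called 1 (Pcdhb21) lower, and the groups overlapped for 17. Per kilobase, Pcdhb17 led the beta genes in IP, with 2.23 CPM per kb in IP and 1.93 CPM per kb in input, and Pcdhb9 led them in input, with 2.05 CPM per kb in IP and 2.81 CPM per kb in input. The libraries of Pcdhb17 held 10.9, 11.5 and 8.79 CPM in IP against 10.1, 7.42 and 9.37 CPM in input, which overlap. Pcdhb22 held 9.49, 7.39 and 7.98 CPM in IP against 7.57, 10.1 and 7.56 CPM in input, and Pcdhb9 4.78, 8.02 and 6.0 CPM in IP against 6.78, 9.59 and 9.34 CPM in input. IP lay entirely above input for Pcdhb12 alone, at 3.05, 4.21 and 2.78 CPM in IP against 2.28, 2.15 and 1.70 CPM in input (log2 fold change 0.71 ± 0.32, adjusted p 0.134). IP lay entirely below input for Pcdhb4, Pcdhb16 and Pcdhb21. Pcdhb21 had 20, 10 and 2 counts in IP against 126, 32 and 28 in input, with a log2 fold change of -2.37 ± 0.96, an adjusted p of 0.0976, and 0.0435 with the replicate as a block.

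The shared exons bear on what these counts hold. On mm39 the 14 alpha genes end between 37320710 and 37320714 and the 21 gamma genes between 37974923 and 37974926 on chromosome 18, since their transcripts run into the same constant exons. A base that several genes cover cannot be credited to 1 of them. Exon bases that belong to no other gene of the table made up 17.5 to 52.3% of alpha genes and 25.9 to 71.6% of gamma genes. In beta genes they made up 36.5 to 100%, and in non-clustered genes 53.6 to 100%, so these ranges overlap. The bases owned by 1 gene ended 2860 to 2866 bases before the 3′ end of the transcript in alpha genes and 2116 to 2315 bases before it in gamma genes. In beta genes the distance was 0 to 455 bases, and in the tested non-clustered genes it was 0. Reads in the constant exons had not been given to every gene of a cluster, since Pcdha4 and Pcdha11 held 8 and 2 counts over all 6 libraries. How reads in the constant exons were counted is not given in the sources used here. The sequence that alpha and gamma genes own lies far from the poly(A) tail, whereas that of beta and non-clustered genes lies at or near it.

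Among the other protein-coding genes tested, 156 had their own sequence end 2000 or more bases before the 3′ end. Overlap with any gene of the table on either strand was counted for this. The 156 include different genes at the same distance, such as Pax6 and Elp4 at 3289 bases. They therefore need not share spliced constant exons and are not the same case as alpha and gamma genes. Their median log2 fold change was -0.31, and 30.1% of them were lower. The 13092 whose own sequence reached the 3′ end had a median of -0.07, with 18.7% lower. Alpha and gamma medians were -2.54 and -3.37. With the correction for gene length and GC content and the replicate as a block they were -2.71 and -3.41. That correction used the deposited gene length and the GC content of the whole transcript, shared exons included. It therefore cannot address the length, GC content or position of the sequence that these genes own. How far the distance from the tail sets the alpha and gamma values was not tested.

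**Figure D4:**
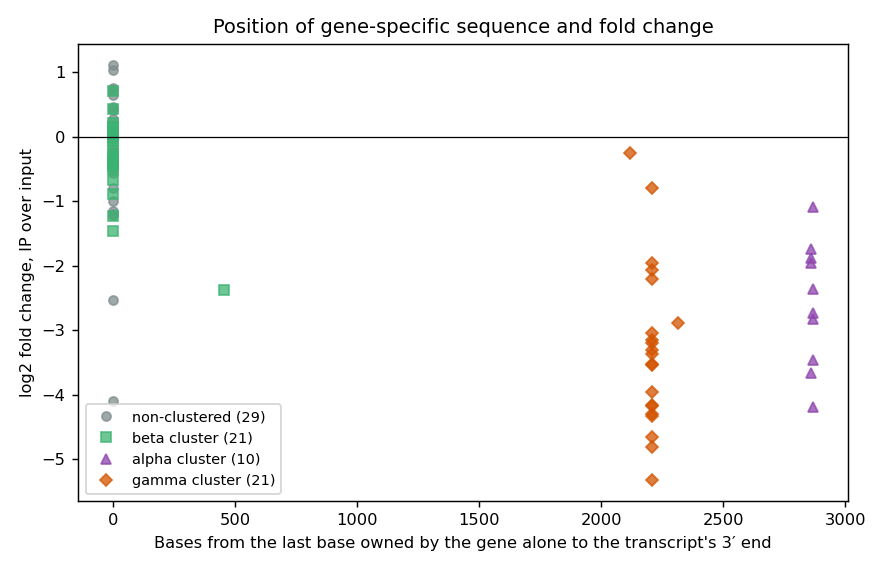
Log2 fold change of IP over input (vertical axis) against the distance in bases from the last base that a gene shares with no other to the 3′ end of its transcript (horizontal axis), for the 81 tested genes. Alpha and gamma genes lie at 2116 bases or more and all below 0, while beta and non-clustered genes lie at 0 to 455 bases on both sides of 0.

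Partners of cadherins were counted from lists drawn up for this family. Of 10 genes of the catenin and p120 families 1 rose and 3 fell, or 10% and 30% against 12.9% and 17.1% of all genes tested. The median of their log2 fold changes was -0.55. With the replicate as a block 5 fell, Ctnnb1 and Ctnnd1 among them. Pkp4, of the p120 family, rose, with 356, 311 and 344 CPM in IP against 228, 233 and 234 CPM in input (log2 fold change 0.54 ± 0.11, adjusted p 0.00813). Ctnnal1, an alpha-catenin relative, had 4.29, 5.53 and 3.91 CPM in IP against 15.4, 13.4 and 18.3 CPM in input (-1.78 ± 0.22, adjusted p 0.00104). Jup, or plakoglobin, had 18.9, 31.2 and 25.7 CPM in IP against 58.6, 56.3 and 61.6 CPM in input (-1.22 ± 0.19, adjusted p 0.00261). In each of these 3 genes the groups were well apart.

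Of 19 tested genes of the wider cadherin superfamily 1 rose and 3 fell, or 5.26% and 15.8%, both under the shares over all genes, with a median of -0.44. With the replicate as a block 3 rose and 4 fell. Ret, the receptor of neurotrophic factors of the GDNF family, then passed at an adjusted p of 0.00112 (log2 fold change 1.0 ± 0.34 and adjusted p 0.0555 without it). Clstn2, a calsyntenin of synapses, rose, with a log2 fold change of 0.57 ± 0.15 and an adjusted p of 0.0243, but was lost without any of the 3 IP libraries or input replicate 3, at adjusted p from 0.0521 to 0.0899. The large cadherin Fat4 (-2.21 ± 0.42, adjusted p 0.00591) and the planar polarity gene Celsr1 (-2.57 ± 0.66, adjusted p 0.0204) fell. The call of Celsr1 was lost without IP replicate 2, IP replicate 3 or input replicate 1, at adjusted p from 0.0717 to 0.0761. Among 14 tested regulators of the clusters, namely CTCF, cohesin and chromatin factors that act on promoter choice, 9, or 64.3%, fell and 0 rose in edgeR's test, 0 were higher by its unadjusted p or in DESeq2, and the median was -0.57. With the correction for gene length and GC content and the replicate as a block 3 of the 9 stayed lower, namely Nipbl, Smc3 and Mau2. The cohesin subunits Stag2 and Stag1 fell, with log2 fold changes of -0.78 ± 0.14 and -0.80 ± 0.17, and were lost under that correction, at -0.12 and -0.38 and adjusted p of 0.505 and 0.0558. Ctcf had 83.6 CPM in IP and 83.5 CPM in input. Of 11 genes of the WAVE complex and of kinases bound by protocadherins 3 fell, or 27.3%, with a median of -0.20. Among the 3 were Cyfip1 (-2.14 ± 0.26) and Wasf2 (-1.93 ± 0.26). The sequence that Cyfip1 alone owns ended 2784 bases before its 3′ end, and the part of that distance in its fall was not tested. Of 7 genes of the proteases that cut cadherins 1 rose, or 14.3%, near the 12.9% of all genes tested, with a median of -0.03. The gene that rose was the presenilin gene Psen2 (0.56 ± 0.18, adjusted p 0.0454). Psen2 was lost without any library other than input replicate 2, at adjusted p from 0.0684 to 0.138, and under the length and GC correction with the block (adjusted p 0.0801).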

How the data were processed

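RNA of 3 IP and 3 input libraries was poly(A)-selected and sequenced as paired ends of 75 bases, per the labels' protocols. The submitters' processing notes name HISAT2, mm39, featureCounts and DESeq2. Versions and the use of strand are not given in the sources used here, so overlapping or antisense genes may share reads. The table's counts per gene were deposited by the authors without normalization. Its normalized signal, its FPKM values and its gene lengths (used for the levels per kilobase and the length correction) are also the authors' deposited values, as are the log2 fold changes and p-values of their own comparison, which calls 5 members higher and 33 lower and shares all 35 calls made here with the same sign. Among counts from 1 to 10, 67.4 to 72.9% were even, and whether both mates of a pair were counted is not given.

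Only the counts were tested here, with edgeR's quasi-likelihood test (edgeR 4.0.16, R 4.3.3), TMM scaling, the filterByExpr filter by group (about 10 counts in 3 libraries), Benjamini-Hochberg adjustment over 18640 genes and an adjusted p under 0.05, two-sided; the method was tested on simulated data. The SE is the log2 fold change divided by the square root of F. A count of 3 equals 0.0551 to 0.0651 CPM. Exon bases come from GENCODE M39. Levels per kilobase use the deposited gene length, or own exon bases for alpha and gamma genes.

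Same-numbered libraries share a pool of tissue, per the design text, and their deviations correlated at 0.38, 0.22 and 0.18; the main test has no block, and the blocked value stands beside a named gene or list whose call or count it changes. Members past the threshold and the 3 most abundant of each subfamily are named with values, and so are the 2 genes of each context list with the smallest adjusted p in either direction. Pcdh8, Cdh23, Pcdhgb7, Pcdhgb8, Pcdhga3, Pcdhb4, Pcdhb12, Pcdhb16, Pcdhb21, Ctcf, Ctnnb1, Ctnnd1, Ret, Nipbl, Smc3, Mau2, the cortical markers and the untested members were named outside this rule. The members and lists were chosen with earlier results of these data known. Alternatives were DESeq2 1.42.0, other scalings and filters, the block, a length and GC correction with the block (splines of 4 degrees of freedom), a test against a fold change of 1.5, libraries left out, and, chosen after seeing the data, halved counts.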

Additional observations from a re-analysis of the deposited data

How the results depend on the processing

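The 35 members called gave 660 values over 19 alternatives, of which 547 stayed on the same side of the threshold, 113 lost the call and 0 reversed. The stricter low-count filter removed Cdh5, Pcdha7, Pcdha6, Pcdha10 and Pcdhga1. They have no value under it and are not among the 113. Counts of members higher in IP were 4, but 7 with the blocked length and GC correction, where Cdh4, Pcdh8 and Pcdh19 were added. There was 1 in the test against a fold change of 1.5, and 2 without both libraries of replicate 2. With both libraries of replicate 3 left out, 1 member was higher (Cdh24) and 5 were lower (Cdh19, Pcdhga7, Pcdhga2, Pcdhgb2 and Pcdhgb1), and 133 genes were higher and 742 lower over the whole table, against 2400 and 3191 with all libraries. With single libraries left out, higher members ranged from 2 (without IP replicate 2) to 4 and lower members from 21 to 28, and over the whole table from 1417 to 2630 genes were higher and from 2035 to 3080 lower. Without both libraries of replicate 2 these were 1508 and 2095, and in the test against a fold change of 1.5 they were 448 and 1656. The replicate block gave 5 higher and 32 lower members and changed no member's call beyond those of Cdh5, Pcdh8, Pcdhga3 and Pcdhb21 given with these genes.

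Library totals alone shifted the median log2 fold change of all genes by -0.11; Cdh13 then lost its call and Cdh2 passed as lower (adjusted p 0.0482). Signs turned under some alternative for 18 tested members, 0 of them called. Among the genes named by abundance these were 4. Pcdh9 turned to 0.021 with the blocked length and GC correction. Pcdh1 turned to 0.049 with the replicate block and to 0.32 and 0.026 without both libraries of replicates 1 and 3, with -0.25 to 0.41 over single libraries left out. Pcdh20 turned to -0.030 with library totals and -0.073 without both libraries of replicate 1, with -0.057 to 0.21 over single libraries left out. Pcdhb22 turned to 0.0032 in DESeq2, 0.0027 with RLE factors, 0.19 with the blocked length and GC correction and 0.24 without both libraries of replicate 2, with -0.13 to 0.17 over single libraries left out. The cause of these changes was not tested. Log2 ratios of the cluster sums moved by less than the spread between replicates. Cdh5, Pcdha7, Pcdha6, Pcdhgb1 and Pcdha10 rest on 26, 14, 9, 8 and 6 counts over the IP libraries, which limits their values.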
